A study of Mus musculus with 20 samples.

Results

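The sirtuins are a family of enzymes that remove acyl groups from proteins and consume NAD as they do so. The genes described here are the 7 sirtuins, Sirt1 to Sirt7, together with 3 genes of NAD metabolism, Nampt, Nnmt and Nadsyn1. Members were the probe sets whose only gene symbol is one of these 10 names. The rule found 8 probe sets, of 45037 on the array that are not controls, and they name 7 of the 10 genes: Sirt1, Sirt3, Sirt4, Sirt5 (with 2 probe sets), Sirt7, Nnmt and Nadsyn1. Sirt2, Sirt6 and Nampt had no probe set with that single symbol and are not analysed here.

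The RNA came from the livers of 20 mice, with 1 Affymetrix expression array per mouse and 5 mice in each of 4 groups. Progeroid mice were Ercc1Δ/-, carrying a null allele and a Δ allele of Ercc1, which encodes a subunit of a DNA repair nuclease. Their controls were wild-type littermates, and every mouse was an F1 hybrid of C57BL6J and FVB, ate AIN93G synthetic pellets and was 11 weeks old. Within each genotype, one group ate freely (control diet) and the other was on a restricted diet. Restriction began at 7 weeks of age with 10% less food and reached 30% less at 9 weeks. Food was handed out shortly before lights-off. The sources used here give neither the sex of the mice nor the hour at which livers were taken.

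Every cell keeps NAD in balance by making it, using it and clearing its breakdown product, nicotinamide. Liver makes NAD from tryptophan through the kynurenine pathway, from nicotinic acid through a route that ends with NAD synthetase (Nadsyn1), and from nicotinamide by salvage, in which nicotinamide phosphoribosyltransferase (Nampt) is the rate-limiting enzyme. Nicotinamide N-methyltransferase (Nnmt) methylates nicotinamide at the expense of the methyl donor S-adenosylmethionine, and sirtuins work in the nucleus (Sirt1, Sirt6, Sirt7), the cytosol (Sirt2) and the mitochondrion (Sirt3, Sirt4, Sirt5).

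All values are log2 levels made with RMA, a method that gives all arrays the same overall distribution, so a shift shared by all genes would not be seen, and the scale has no zero point. The tissue label was checked with hepatocyte markers: the mean of 9 such genes lay between 13.13 and 13.35 in every animal, and the adipocyte gene Adipoq lay between 3.17 and 3.62. Of 4 probe sets named Ercc1, 2 were lower in progeroid than in wild-type livers on the control diet, by 1.24 and 1.60, and for the others wild type minus progeroid was -0.02 and 0.03. Among 11 Kupffer cell and macrophage markers, 2 were higher in progeroid livers on the control diet and 9 on the restricted diet, where 5.85% and 10.8% of all genes were higher. Of 10 stellate cell and fibroblast markers 3 were higher in progeroid livers on each diet, and of 7 neutrophil and monocyte markers 2 were. With restriction, 3 Kupffer cell markers fell in wild-type livers, as did 2 stellate and 1 neutrophil marker, where 12.0% of all genes fell. Of 8 sinusoidal endothelial, 8 lymphocyte and 4 erythroid markers 1 each fell there too. In the same livers 2 stellate markers rose, against 9.48% of all genes. In progeroid livers 1 of 9 hepatocyte, 1 lymphocyte and 1 erythroid marker fell with restriction, against 4.25% of all genes. Between genotypes on the restricted diet, 1 hepatocyte marker was lower in progeroid livers, against 4.52%. In bulk tissue, fewer cells of a type and less RNA per cell cannot be told apart. The 3′ minus 5′ signal of the Gapdh control probe sets, a sign of RNA quality, was 0.66 ± 0.06 in control wild-type, 0.76 ± 0.12 in restricted wild-type, 0.93 ± 0.28 in control progeroid and 0.81 ± 0.24 in restricted progeroid livers (SD, n = 5 each). The part of these measures in the results below was not tested.

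The promoters of Sirt1 and Nadsyn1 are shown because both genes rose with restriction in wild-type livers while differing in the motifs they hold. The pair was picked with the calls and the motifs known. Each window is the 250 bases before the annotated start, 5′ to 3′ on the gene's strand, from RefSeq on build GRCm38.p6. Capitals mark CACGTG (an E-box, the site of CLOCK and BMAL1 among other factors) and GGGCGG (a GC box) or its reverse complement. The Sirt1 window is chr10:63339036-63339285 on the minus strand, next to a gene that spans chr10:63319005-63339035. The Nadsyn1 window is chr7:143822853-143823102 on the minus strand, at the end of a gene that spans chr7:143795589-143822862.
Sirt1: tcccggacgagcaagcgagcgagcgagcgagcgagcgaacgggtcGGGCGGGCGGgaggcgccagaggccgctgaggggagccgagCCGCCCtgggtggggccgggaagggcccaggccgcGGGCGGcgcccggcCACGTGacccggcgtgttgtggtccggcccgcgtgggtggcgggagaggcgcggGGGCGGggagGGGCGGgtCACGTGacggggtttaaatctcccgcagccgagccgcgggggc
Nadsyn1: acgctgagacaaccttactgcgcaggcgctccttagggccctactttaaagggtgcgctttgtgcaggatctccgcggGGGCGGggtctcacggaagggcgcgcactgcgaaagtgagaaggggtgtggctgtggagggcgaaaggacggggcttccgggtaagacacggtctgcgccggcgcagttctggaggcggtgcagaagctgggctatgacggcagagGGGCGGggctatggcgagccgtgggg
The Sirt1 window held 2 E-boxes, 115 to 110 and 43 to 38 bases before the start, and 6 GC boxes, of which a pair overlaps. The Nadsyn1 window held no E-box and 2 GC boxes. On both strands, CACGTG occurred in 6.02% and GGGCGG in 32.7% of 32851 windows of the same length. G and C made up 79.2% of the Sirt1 and 66% of the Nadsyn1 window, where the median over all windows was 52.4%. The motif shares were not adjusted for this. CCAAT (33.8% of windows) and the forkhead element TGTTTAC (3.17%) were also searched, and neither occurred in these 2 windows. Of the 10 genes, 9 had an entry in the promoter table, and Nnmt had none. Sirt1 was the only one of these with an E-box. Sirt5, whose brighter probe set also rose in wild-type livers, had a window with 1 GC box, 1 CCAAT and no E-box. A match describes the letters only.

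Dietary restriction went with higher levels of several of these genes in each genotype. In wild-type livers 4 of the 8 probe sets passed limma's test, all of them higher (Nnmt, Nadsyn1, Sirt1 and the brighter Sirt5 probe set). Among all probe sets tested 19.0% passed, 9.88% as higher. In progeroid livers 3 passed, again all higher (Nadsyn1, Sirt3 and the brighter Sirt5 probe set), against 8.25% of all probe sets and 4.81% as higher. The median difference of the 8 probe sets was 0.20 in wild-type and 0.28 in progeroid livers, where the medians over all probe sets were -0.01 and -0.01.

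Fewer of the 8 probe sets passed between genotypes. On the control diet 1 of the 8 probe sets, the brighter Sirt5 probe set, was higher in progeroid livers, against 6.94% of all probe sets. On the restricted diet 2 passed, Sirt5 higher and Nnmt lower, against 11.5% of all probe sets. No member passed for the difference between the diet effects of the genotypes, where limma called 0.777% of all probe sets. At an unadjusted p under 0.05, 2 members (Sirt3 and Nnmt) would pass there. A threshold of 0.05 on the p adjusted by Benjamini-Hochberg over all 45037 probe sets was used throughout.

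**Figure D1:**
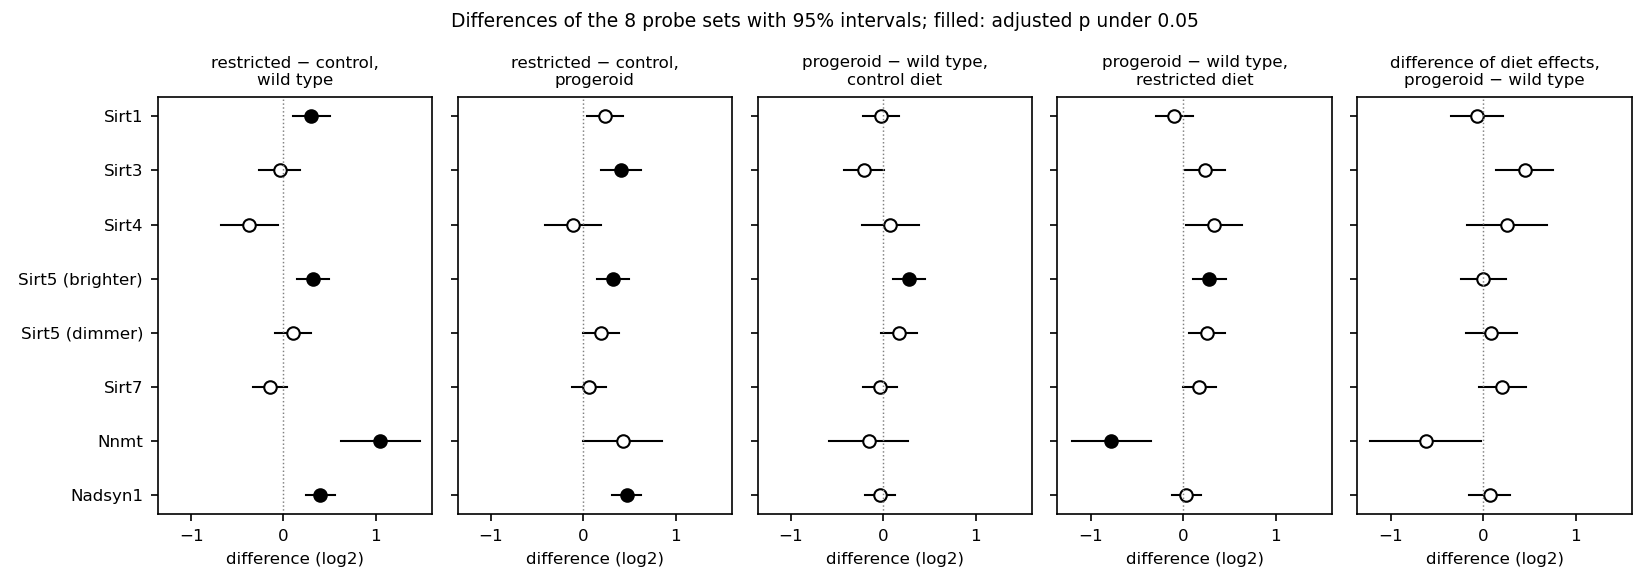
Difference on the log2 scale (x axis) of the 8 member probe sets (y axis) in 5 comparisons, with 95% confidence intervals as lines. Filled points have a limma adjusted p under 0.05. Nadsyn1 and the brighter Sirt5 probe set are filled in both diet comparisons, Nnmt and Sirt1 in wild type and Sirt3 in progeroid livers.

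Nadsyn1 encodes the glutamine-dependent NAD synthetase, the last enzyme of NAD synthesis from tryptophan and from nicotinic acid. In wild-type livers its levels were 7.67, 7.68, 7.70, 7.77 and 7.78 on the control diet and 8.04, 8.06, 8.14, 8.14 and 8.19 on the restricted diet. The diet groups did not overlap, and their values lay within a narrow band in each. In progeroid livers the levels were 7.37, 7.68, 7.69, 7.75 and 7.93 on the control diet and 8.04, 8.14, 8.14, 8.22 and 8.23 on the restricted diet. These groups did not overlap either, although animal 321 lay below the other control animals. Restriction raised Nadsyn1 by 0.40 ± 0.08 (SE; 1.32-fold) in wild-type livers, with an adjusted p of 0.000886 in limma. The rise in progeroid livers was 0.47 ± 0.08 (1.38-fold, adjusted p = 0.000621). The rises differed by 0.07 ± 0.11 (95% interval -0.15 to 0.29, adjusted p = 0.837). In order of group mean, restricted progeroid (8.15) and restricted wild type (8.12) came first, then control wild type (7.72) and control progeroid (7.68), and only the middle step passed the test. Groups that did not overlap were found for 2 members in each diet comparison, against 13.4% of all probe sets in wild-type and 7.11% in progeroid livers.

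Of 17 other genes of NAD synthesis 13 were measured, and their changes with diet went both ways. In wild-type livers 2 rose and 2 fell with restriction, and in progeroid livers 2 rose and 3 fell. Over all 17097 genes, each taken at its brightest probe set, 21.4% passed in wild type (9.48% higher, 12.0% lower) and 10.4% in progeroid livers (6.11% higher, 4.25% lower). Kynu (kynureninase) and Kmo (kynurenine 3-monooxygenase), both of the kynurenine pathway, fell in each genotype. Kynu fell by 0.57 ± 0.08 in wild-type (adjusted p = 7.46e-05) and by 0.56 ± 0.08 in progeroid livers (adjusted p = 0.000319), with no overlap in either. Kmo fell by 0.48 ± 0.07 (adjusted p = 4.74e-05) and by 0.28 ± 0.07 (adjusted p = 0.0137), again with no overlap. Tdo2, the dioxygenase that starts the pathway in liver, differed by 0.02 ± 0.07 in each genotype (adjusted p = 0.869 and 0.912); it is named here after its values were seen.

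Nt5e, a cell-surface nucleotidase that can act on NAD precursors, rose most of the measured synthesis genes. Its mean went from 5.87 ± 0.23 to 7.39 ± 0.32 (SD, n = 5) in wild type, a rise of 1.51 ± 0.19 (SE; 2.86-fold, adjusted p = 1.13e-05). In progeroid livers it went from 5.70 ± 0.30 to 6.69 ± 0.42, a rise of 0.99 ± 0.19 (1.99-fold, adjusted p = 0.00217). These values are of its brightest probe set. Under other settings, among them the mean of its probe sets, the rise was 0.61 to 1.52 in wild type and 0.37 to 1.02 in progeroid livers. Each of these passed. For Nt5e, restricted progeroid livers were 0.70 ± 0.19 below restricted wild-type livers (adjusted p = 0.0185), a difference of -0.75 to -0.29 under other settings. That call was lost without animal 368 (adjusted p = 0.0632) or 425 (0.0549). Nmnat3, an adenylyltransferase that forms NAD and is named here after its values were seen, rose by 0.39 ± 0.10 in wild-type (adjusted p = 0.0109) and by 0.42 ± 0.10 in progeroid livers (adjusted p = 0.0131). With its probe sets averaged the wild-type rise was 0.15 and did not pass (adjusted p = 0.163). Ido2, a second tryptophan dioxygenase, fell by 0.52 ± 0.12 in progeroid livers (adjusted p = 0.0079). The list's median difference was -0.08 in wild type and 0.02 in progeroid livers, beside -0.03 and -0.01 over all genes.

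Between genotypes, 1 synthesis gene was lower on the control diet, and on the restricted diet 3 were lower and 1 higher in progeroid livers. Over all genes 9.52% passed on the control diet (5.85% higher, 3.67% lower) and 15.3% on the restricted diet (10.8% higher, 4.52% lower). Haao, the enzyme that forms the precursor of quinolinic acid, was lower in progeroid livers by 0.34 ± 0.07 on the control diet (adjusted p = 0.00606) and by 0.37 ± 0.07 on the restricted diet (adjusted p = 0.002), and the genotypes did not overlap on either. Kmo was higher in restricted progeroid livers by 0.26 ± 0.07 (adjusted p = 0.017). Without animal 368, 423 or 424 its adjusted p was 0.0504 to 0.0526. Without animal 425 the 3 lower genes were 1, and without animal 405 a synthesis gene was higher on the control diet.

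**Figure D2:**
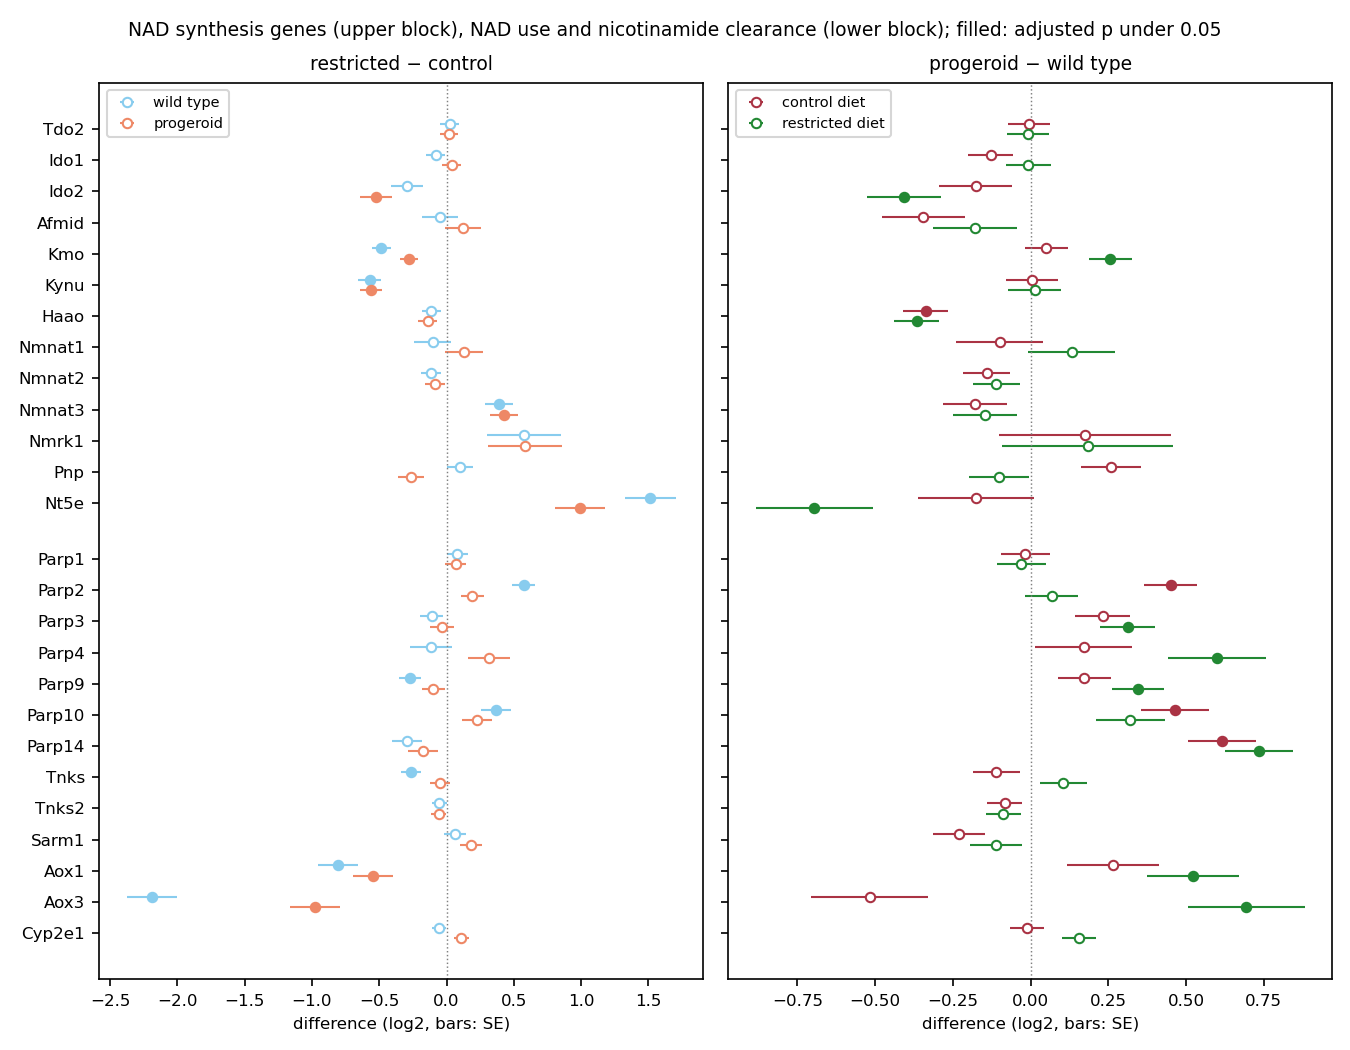
Differences on the log2 scale (x axes) with SE bars for the measured genes of NAD synthesis (upper block) and of NAD use and nicotinamide clearance (lower block). The left panel shows restricted minus control diet in each genotype and the right panel progeroid minus wild type on each diet. Filled points have a limma adjusted p under 0.05; Aox3 shows the lowest diet difference and Nt5e the highest (1.51), both in wild type.

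Nnmt had the largest change of all members. In wild-type livers its levels were 10.14, 10.32, 10.43, 10.45 and 10.47 on the control diet and 11.18, 11.24, 11.35, 11.53 and 11.77 on the restricted diet. Every restricted wild-type animal lay above every control one. In progeroid livers the levels were 9.84, 10.01, 10.09, 10.10 and 11.00 on the control diet and 10.13, 10.34, 10.44, 10.98 and 11.27 on the restricted diet. These groups overlapped through control animal 327, at 11.00, which stood 0.90 above the next animal of its group, and the restricted animals spread over more than 1 unit.

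Restriction raised Nnmt by 1.05 ± 0.20 (SE; 2.07-fold) in wild-type livers, with an adjusted p of 0.00108 in limma. In progeroid livers the difference was 0.43 ± 0.20 (1.34-fold, 95% interval -0.0010 to 0.85), which did not pass (adjusted p = 0.233). Without animal 327 it was 0.62 and passed (adjusted p = 0.0318). The diet effects differed by -0.62 ± 0.29 (95% interval -1.23 to -0.02, unadjusted p = 0.0437, adjusted p = 0.351), and by -0.43 without animal 327 (adjusted p = 0.477). On the restricted diet Nnmt was lower in progeroid than in wild-type livers by 0.78 ± 0.20 (1.72-fold, adjusted p = 0.0156). That difference was 0.65 without animal 368 and no longer passed (adjusted p = 0.0556). On the control diet the genotypes differed by -0.16 ± 0.20 (adjusted p = 0.735). Restricted wild type (11.41) stood first in the order of means, and the steps from restricted progeroid (10.63) to control wild type (10.36) and on to control progeroid (10.21) did not pass (adjusted p = 0.388 and 0.735).

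**Figure D3:**
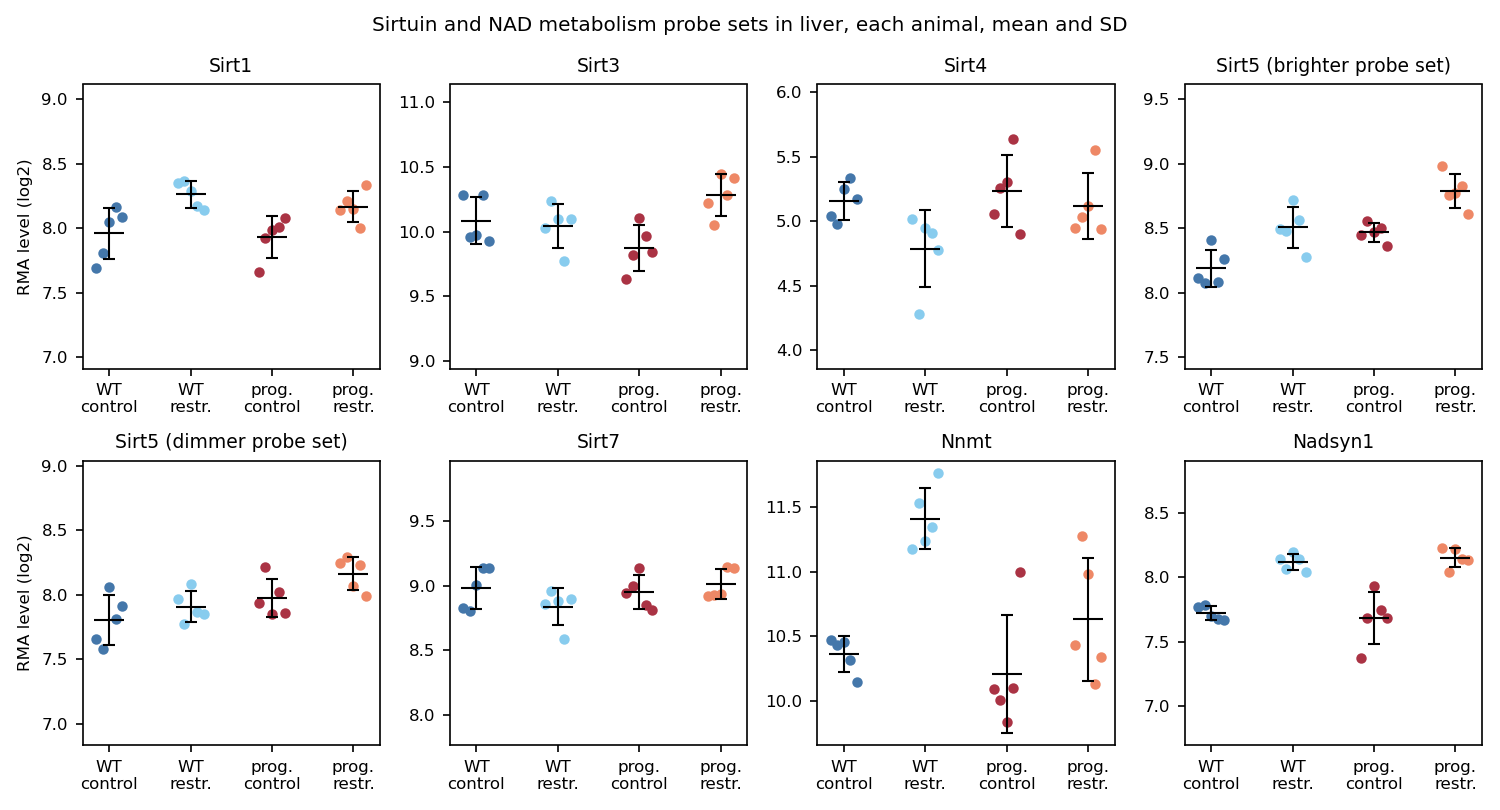
RMA log2 level (y axis) of the 8 member probe sets in each of the 20 livers (points), by group (x axis), with group mean and SD as bars. Every y axis spans at least 2 log2 units. For Nnmt the restricted wild-type animals lie between 11.18 and 11.77, above every control wild-type animal and overlapping the restricted progeroid ones, and the restricted groups of both genotypes lie highest for Nadsyn1 (8.04 to 8.23).

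Clearance of nicotinamide also runs through the aldehyde oxidases Aox1 and Aox3, which oxidise N-methylnicotinamide, the product of Nnmt, and both fell with restriction. Among 13 measured genes of NAD use and nicotinamide clearance, 2 rose and 4 fell in wild-type livers, and 2 fell and none rose in progeroid livers. Beside these, 9.48% of all genes rose and 12.0% fell in wild type, and 6.11% and 4.25% did in progeroid livers. Without animal 403 the 4 that fell were 2, and without 404, 421 or 425 the 2 that rose were 1. Aox3 went from 12.35 ± 0.17 to 10.16 ± 0.19 (SD, n = 5) in wild type, a fall of 2.19 ± 0.19 (SE; 4.56-fold lower, adjusted p = 1.55e-07), with no overlap. In progeroid livers it went from 11.83 ± 0.37 to 10.85 ± 0.47, and the groups overlapped. The fall there was 0.98 ± 0.19 (1.97-fold lower, adjusted p = 0.00246). Aox3 was the only gene of the 7 lists named here whose diet effect differed between genotypes, by 1.21 ± 0.27 (adjusted p = 0.0356), where 1.05% of all genes passed. That call was lost when any 1 of 15 of the 20 animals was left out, with adjusted p from 0.0528 to 0.0764; it held without 323, 326, 362, 405 or 421. With an intensity trend and robust variances the adjusted p was 0.0532. Aox1 fell by 0.81 ± 0.15 in wild-type livers (adjusted p = 0.000665) and by 0.55 ± 0.15 in progeroid livers (adjusted p = 0.0252). The progeroid call of Aox1 was lost without animal 321, 362, 365 or 366 (adjusted p = 0.0598 to 0.0757) and with only the 2 groups fitted (0.0588).

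Nnmt draws on the methyl donor pool, and of 20 genes of methyl donor metabolism 18 were measured. With restriction 7 rose and 1 fell in wild-type livers, and 3 rose and none fell in progeroid livers. Over all genes 9.48% rose and 12.0% fell in wild-type livers, and 6.11% rose and 4.25% fell in progeroid livers. The single fall was lost without animal 403, 405 or 422. The list's median difference was 0.24 in wild type and 0.06 in progeroid livers, beside -0.03 and -0.01 over all genes. Mat1a, the liver's S-adenosylmethionine synthetase, rose by 0.60 ± 0.07 in wild-type (adjusted p = 3.35e-06) and by 0.42 ± 0.07 in progeroid livers (adjusted p = 0.000613). Mat2b, a regulatory subunit of that enzyme family, rose by 0.59 ± 0.08 (adjusted p = 1.74e-05) and 0.50 ± 0.08 (adjusted p = 0.000325). Diet groups overlapped for neither gene in either genotype.

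Ahcy, which breaks down S-adenosylhomocysteine, the by-product of methylation, rose by 0.30 ± 0.06 in wild-type (adjusted p = 0.00205) and by 0.25 ± 0.06 in progeroid livers (adjusted p = 0.0169). Without animal 323 or 365 the progeroid adjusted p was 0.0553 or 0.0513. Mthfd1, a folate enzyme, rose by 0.44 ± 0.08 in wild-type livers (adjusted p = 0.000768). Gnmt, a glycine methyltransferase that like Nnmt consumes S-adenosylmethionine, rose by 0.26 ± 0.05 in wild-type livers (adjusted p = 0.00204) and was lower in restricted progeroid than in restricted wild-type livers by 0.24 ± 0.05 (adjusted p = 0.00561). Pemt, which methylates phosphatidylethanolamine, was lower in progeroid livers by 0.34 ± 0.08 on the control diet (adjusted p = 0.00847). Between genotypes 3 of the 18 genes were lower in progeroid livers on each diet, against 3.67% and 4.52% of all genes, and none higher.

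Sirt1 encodes a nuclear deacetylase that acts on histones and on transcription factors of fasting metabolism. Its levels in wild-type livers were 7.70, 7.81, 8.05, 8.09 and 8.17 on the control diet and 8.14, 8.17, 8.29, 8.35 and 8.37 on the restricted diet. The groups overlapped at their edges. In progeroid livers they were 7.66, 7.92, 7.99, 8.01 and 8.08 on the control diet and 7.9996, 8.14, 8.15, 8.21 and 8.33 on the restricted diet, with a similar overlap. Restriction raised Sirt1 by 0.30 ± 0.09 (SE; 1.23-fold) in wild-type livers, with an adjusted p of 0.0281 in limma. The call was lost without animal 401, 402, 421, 422 or 423, with adjusted p from 0.0571 to 0.0884. In progeroid livers the difference was 0.24 ± 0.09 (adjusted p = 0.138), and the diet effects differed by -0.07 ± 0.13 (95% interval -0.34 to 0.21). No neighbouring pair in the order of the 4 group means passed.

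Sirt7 encodes a nuclear sirtuin that is concentrated in the nucleolus and acts on histone H3 and ribosomal gene transcription. It passed in no comparison, and its group means lay between 8.83 and 9.01. Over the 20 livers its levels ran from 8.59 to 9.14. The 95% interval of its diet effect was -0.33 to 0.04 in wild-type and -0.12 to 0.24 in progeroid livers.

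Of 19 substrates and partners of the nuclear sirtuins 15 were measured. With restriction 3 rose and 3 fell in wild-type livers and 1 rose in progeroid livers, and between genotypes 1 was higher on the control diet, and 2 were higher and 1 lower on the restricted diet. The shares over all genes were 9.48% and 12.0% (rose and fell in wild type), 6.11% (rose in progeroid livers), 5.85% (higher on the control diet), and 10.8% and 4.52% (higher and lower on the restricted diet), so that a count of 1 of 15 lay near the background. Without animal 321 or 362 no gene of the list rose in progeroid livers, and without animal 365 there were 2. Without 368, 369 or 424, 1 was higher on the restricted diet. Leaving out probe sets with the suffix _a, _s or _x also takes genes off the list. With that filter 1 rose and none fell in wild-type livers, and none rose in progeroid livers. Between genotypes none was then higher on the control diet, and 1 was higher and none lower on the restricted diet. Crtc2, a coactivator of gluconeogenic genes that Sirt1 deacetylates, rose by 0.51 ± 0.14 in wild-type (adjusted p = 0.0131) and by 0.52 ± 0.14 in progeroid livers (adjusted p = 0.0226). The progeroid call was lost without animal 321 (adjusted p = 0.0654) or 362 (0.0677). The oxysterol receptor Nr1h3 fell by 0.34 ± 0.07 (adjusted p = 0.00239) and the bile acid receptor Nr1h4 rose by 0.29 ± 0.08 (adjusted p = 0.0121) in wild-type livers. Acss2, a cytosolic acetyl-CoA synthetase, was lower in restricted progeroid than in restricted wild-type livers by 1.42 ± 0.31 (2.68-fold, adjusted p = 0.00458), with no overlap. Ccar2, an inhibitor of Sirt1, was higher in progeroid livers on the control diet by 0.42 ± 0.10 (adjusted p = 0.015). With only the 2 groups fitted, the progeroid call of Crtc2 and that of Ccar2 were lost (adjusted p = 0.0549 and 0.051).

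Sirt3 encodes the main deacetylase of the mitochondrial matrix. In progeroid livers its levels were 9.63, 9.82, 9.85, 9.97 and 10.10 on the control diet and 10.05, 10.22, 10.28, 10.42 and 10.45 on the restricted diet. The groups overlapped by 1 animal on each side. In wild-type livers they were 9.93, 9.96, 9.97, 10.28 and 10.29 on the control diet and 9.77, 10.02, 10.09, 10.10 and 10.23 on the restricted diet, which overlapped throughout. Restriction raised Sirt3 by 0.41 ± 0.10 (SE; 1.33-fold) in progeroid livers, with an adjusted p of 0.0177 in limma. The call was lost without animal 321 (adjusted p = 0.0548) or 366 (0.0515). In wild-type livers the difference was -0.04 ± 0.10 (adjusted p = 0.842). The diet effects differed by 0.45 ± 0.15 (95% interval 0.14 to 0.76, unadjusted p = 0.00639), which did not pass over all probe sets (adjusted p = 0.173).

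Sirt5 encodes the mitochondrial enzyme that removes succinyl, malonyl and glutaryl groups, among others from enzymes of the urea cycle and fat oxidation. Its brighter probe set read 8.08, 8.08, 8.12, 8.26 and 8.41 in control and 8.27, 8.48, 8.50, 8.56 and 8.72 in restricted wild-type livers. The diet groups of the wild type overlapped. In progeroid livers it read 8.36, 8.45, 8.47, 8.50 and 8.55 on the control diet and 8.61, 8.76, 8.77, 8.83 and 8.98 on the restricted diet, with no overlap. It was the only member that passed as higher with restriction in both genotypes and in progeroid livers on both diets. Restriction raised it by 0.32 ± 0.08 in wild type (SE; adjusted p = 0.011 in limma) and by 0.32 ± 0.08 in progeroid livers (adjusted p = 0.0204). Progeroid livers were higher by 0.28 ± 0.08 on the control diet (adjusted p = 0.0495) and by 0.28 ± 0.08 on the restricted diet (adjusted p = 0.0327). Restricted progeroid livers stood above control wild-type livers by 0.60 ± 0.08 (1.52-fold, adjusted p = 3.84e-05), with no overlap.

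The genotype calls of Sirt5 lay close to the threshold. On the control diet the call was lost in 6 of the 8 alternative settings (adjusted p = 0.0536 to 0.0889). It was also lost without any 1 of 14 animals (adjusted p = 0.056 to 0.119), and it held without 327, 362, 369, 403, 423 or 425. On the restricted diet it was lost without animal 362, 365, 366, 368, 421, 422 or 425 (adjusted p = 0.0501 to 0.102) or with only the 2 groups fitted (0.0711), and the diet call in progeroid livers was lost without animal 362 (0.0622). The dimmer Sirt5 probe set differed in the same direction in all 4 comparisons, by 0.10, 0.19, 0.17 and 0.26 in the order above, and passed in none (adjusted p = 0.513, 0.251, 0.326 and 0.0832). With the 2 probe sets averaged, the diet differences were 0.21 (adjusted p = 0.0749) and 0.26 (adjusted p = 0.0503).

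Sirt4, a mitochondrial sirtuin known as an inhibitor of glutamate dehydrogenase, passed in none of the 5 comparisons. Its levels were 4.98 to 5.33 in control wild-type and 4.28 to 5.02 in restricted wild-type livers. In progeroid livers they were 4.90 to 5.64 on the control diet and 4.94 to 5.55 on the restricted diet. The difference with restriction was -0.37 ± 0.15 in wild type (95% interval -0.67 to -0.06, unadjusted p = 0.0206, adjusted p = 0.0875) and -0.11 ± 0.15 in progeroid livers (adjusted p = 0.725). Control progeroid livers were higher than restricted wild-type livers by 0.45 ± 0.15 (adjusted p = 0.0343), the only pair of groups that passed.

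Of 16 substrates of the mitochondrial sirtuins 15 were measured, and with restriction 4 rose in each genotype, while 1 fell in wild type and none in progeroid livers. Over all genes 9.48% rose and 12.0% fell in wild type, and 6.11% rose and 4.25% fell in progeroid livers. Without animal 362, 2 rose in progeroid and 2 fell in wild-type livers. With suffixed probe sets left out, 2 rose in progeroid and none fell in wild-type livers. The list's median difference was 0.05 in wild type and 0.17 in progeroid livers, beside -0.03 and -0.01 over all genes. Idh2, the mitochondrial NADP-dependent isocitrate dehydrogenase that Sirt3 and Sirt5 act on, rose by 0.80 ± 0.07 in wild-type (1.74-fold, adjusted p = 2.27e-07) and by 0.72 ± 0.07 in progeroid livers (1.65-fold, adjusted p = 2.91e-06), with no overlap in either. Ppif, the cyclophilin of the permeability transition pore, rose by 0.41 ± 0.09 (adjusted p = 0.00236) and 0.34 ± 0.09 (adjusted p = 0.0184), and its progeroid call was lost without animal 362 (0.0545). Pdha1, a pyruvate dehydrogenase subunit, rose by 0.56 ± 0.07 in wild-type livers (adjusted p = 2.33e-05). Acadl, the long-chain acyl-CoA dehydrogenase that is a classic Sirt3 substrate, rose by 0.35 ± 0.07 in progeroid livers (adjusted p = 0.00191) and differed by 0.15 ± 0.07 in wild-type livers without passing. Mlycd, malonyl-CoA decarboxylase, was higher in restricted progeroid than in restricted wild-type livers by 0.45 ± 0.09 (adjusted p = 0.0027), and Pdha1 was lower (adjusted p = 0.00875). These were the 1 higher and 1 lower of the 15 genes on that diet, against 10.8% and 4.52% of all genes. On the control diet 1 was higher in progeroid livers, against 5.85% of all genes, and none lower. It was Idh2 (0.24, adjusted p = 0.0485), a call lost without any 1 of 16 animals and in 5 of 7 other settings. With its probe sets averaged the difference was 0.08 (adjusted p = 0.555).

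**Figure D4:**
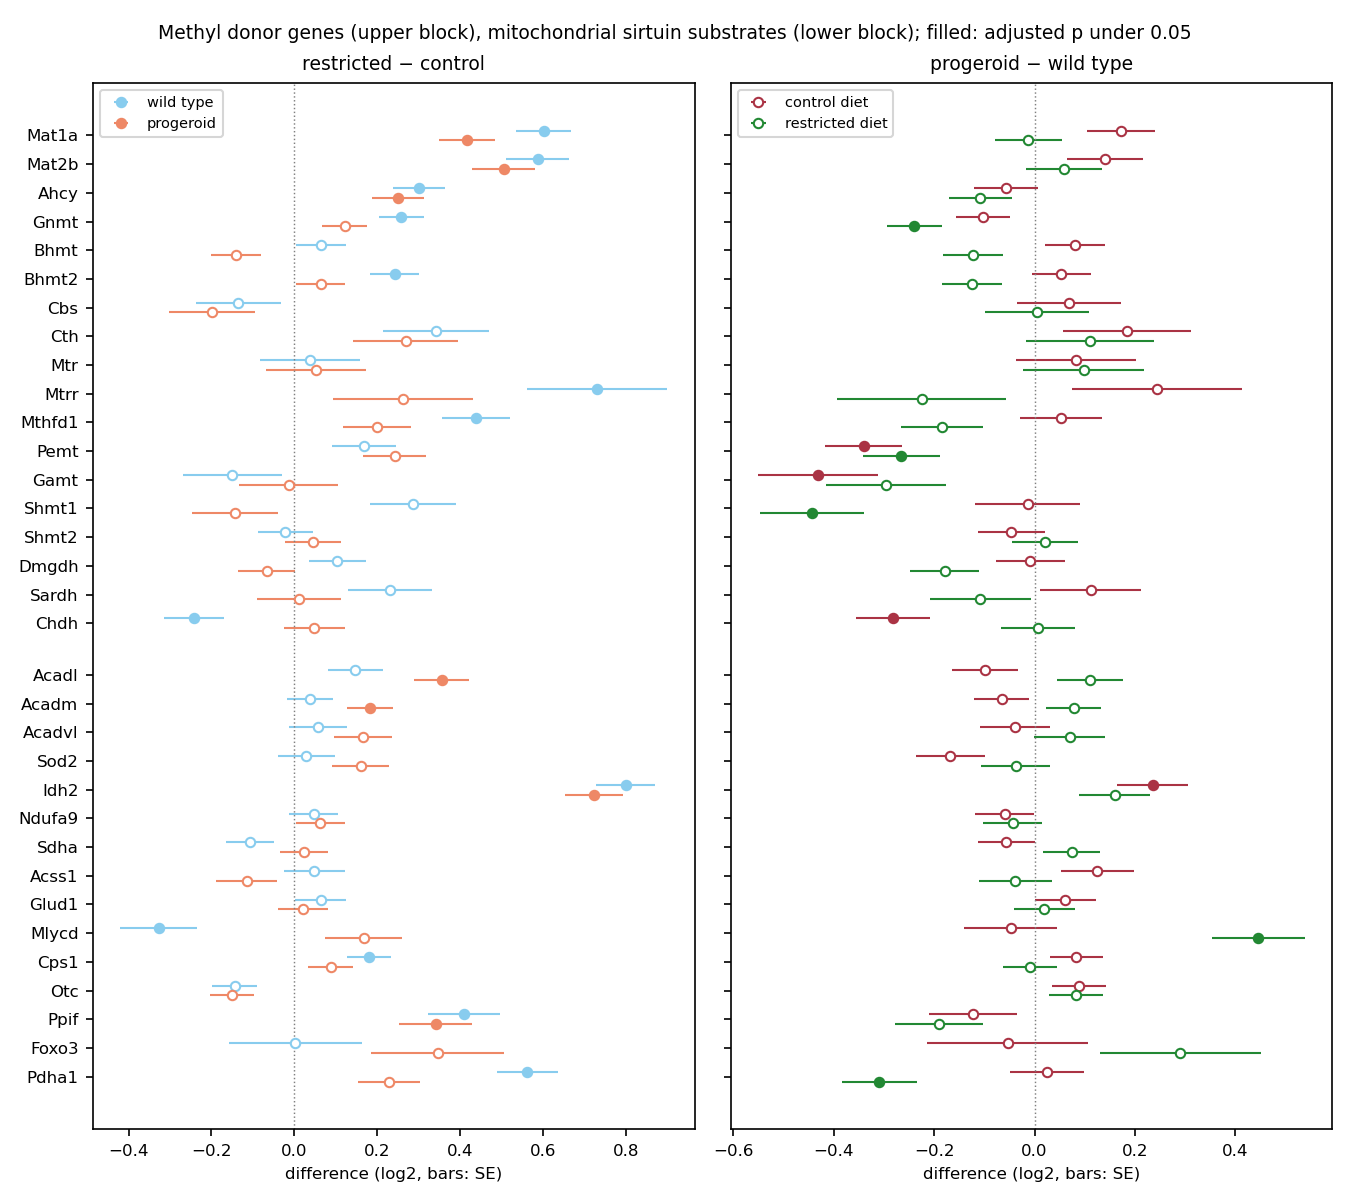
Differences on the log2 scale (x axes) with SE bars for the measured genes of methyl donor metabolism (upper block) and substrates of the mitochondrial sirtuins (lower block). The left panel shows restricted minus control diet in each genotype and the right panel progeroid minus wild type on each diet. Filled points have a limma adjusted p under 0.05; Mat1a, Mat2b, Ahcy, Idh2 and Ppif are filled in both genotypes on the left.

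Poly(ADP-ribose) polymerases and related enzymes consume NAD alongside the sirtuins. Of 15 genes of NAD use and nicotinamide clearance 13 were measured, and in progeroid livers 3 were higher on the control diet and 6 on the restricted diet, with none lower. Over all genes 5.85% and 10.8% passed as higher. Without animal 368 the count on the restricted diet was 3, and under other settings it was 4 to 8. The 6 included the aldehyde oxidases Aox1 (higher by 0.52, adjusted p = 0.0254) and Aox3 (by 0.69, adjusted p = 0.0188). Both of these calls were lost without animal 368 (adjusted p = 0.0816 and 0.0635). That of Aox1 was also lost without animal 369 or 424 and with only the 2 groups fitted. Parp14, a mono-ADP-ribosyltransferase, was higher by 0.61 ± 0.11 on the control diet (adjusted p = 0.0012) and by 0.73 ± 0.11 on the restricted diet (adjusted p = 0.000151), with no overlap on either. Parp2, a DNA damage sensor, was higher in progeroid livers on the control diet by 0.45 ± 0.09 (adjusted p = 0.00218) and rose with restriction in wild-type livers by 0.57 ± 0.09 (adjusted p = 8.6e-05). Parp1, the main DNA damage sensor of the family, differed by -0.02 ± 0.08 and -0.03 ± 0.08 between genotypes (adjusted p = 0.94 and 0.862); it is named here after its values were seen. Some Kupffer cell, neutrophil and stellate cell markers were also higher in progeroid livers. Of 8 sinusoidal endothelial markers 1 was lower there on the control diet and 1 higher on the restricted diet. The shares of all genes were 3.67% and 10.8%. The mean level of the 11 Kupffer cell and macrophage markers was 7.74 to 8.17 in control wild-type, 7.26 to 7.82 in restricted wild-type, 7.97 to 8.64 in control progeroid and 8.06 to 8.86 in restricted progeroid livers, so the genotypes overlapped on the control diet. That of the 7 neutrophil and monocyte markers was 4.00 to 4.19, 4.03 to 4.19, 4.43 to 4.60 and 4.30 to 4.57 in the same order, with no overlap between genotypes on either diet. However, only 2 of these 7 passed on each diet. Their median difference was 0.05 on the control and 0.06 on the restricted diet, so the mean does not describe every marker. The mean level of the 10 stellate cell and fibroblast markers was 6.66 to 6.92, 6.48 to 7.04, 7.02 to 7.22 and 6.86 to 7.19, with overlap on the restricted diet only. The part of these cell types in the result was not tested.

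Of 10 genes that convert or carry NAD and NADP 9 were measured. In wild-type livers 1 rose and 2 fell with restriction and in progeroid livers 1 rose and 1 fell, where 9.48%, 12.0%, 6.11% and 4.25% of all genes did. The wild-type counts were not firm: the 1 that rose was 0 to 4 under other settings, the same in 1 of 8, and 2 without animal 321, 326 or 362, and the 2 that fell were 1 without animal 401, 403, 404, 423, 424 or 425. Slc25a17, a peroxisomal carrier of NAD and coenzyme A, fell by 0.76 ± 0.08 in wild-type (adjusted p = 1.8e-06) and by 0.38 ± 0.08 in progeroid livers (adjusted p = 0.00522). Pgd, an NADPH-producing enzyme of the pentose phosphate pathway, rose by 1.59 ± 0.26 in wild-type livers (3.01-fold, adjusted p = 0.000193). Nnt, the mitochondrial transhydrogenase that couples NADH to NADPH, rose by 0.34 ± 0.08 in progeroid livers (adjusted p = 0.00965). Slc25a51, the carrier that brings NAD into mitochondria, was lower in progeroid than in wild-type livers on the control diet by 0.76 ± 0.15 (1.69-fold, adjusted p = 0.00379). Me1, cytosolic malic enzyme, was lower in restricted progeroid than in restricted wild-type livers by 1.51 ± 0.29 (2.85-fold, adjusted p = 0.00171). On the control diet the Me1 difference was -1.07 (adjusted p = 0.0302). That call was lost without any 1 of 6 animals and in 3 of 7 other settings (adjusted p = 0.0595 to 0.0743). Between genotypes, 2 of the 9 genes were lower in progeroid livers on the control diet and none higher, against 3.67% and 5.85% of all genes. With both genotypes restricted, 2 were higher and 2 lower, against 10.8% and 4.52%.

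NAD salvage and Sirt1 are known to be linked with the circadian clock, and the clock list moved with diet. Of 18 clock genes 16 were measured; 9 rose and 2 fell with restriction in wild-type livers, and 9 rose and 4 fell in progeroid livers. Over all genes 9.48% rose and 12.0% fell in wild type, and 6.11% rose and 4.25% fell in progeroid livers. The 4 that fell in progeroid livers became 1 without animal 323, 326 or 366 and 2 without 321, 368 or 369. The list's median difference was 0.76 in each genotype, beside -0.03 and -0.01 over all genes. Cry2, a repressor of the clock, rose by 0.93 ± 0.12 in wild-type (1.90-fold, adjusted p = 1.1e-05) and by 0.92 ± 0.12 in progeroid livers (1.89-fold, adjusted p = 5.44e-05). Nfil3, a clock-controlled repressor, fell by 2.46 ± 0.34 (adjusted p = 3.31e-05) and by 1.77 ± 0.34 (adjusted p = 0.0022). Clock, the partner of BMAL1, fell by 0.95 ± 0.13 (adjusted p = 3.57e-05) and by 0.50 ± 0.13 (adjusted p = 0.021). The progeroid call of Clock was lost without animal 323, 326 or 366 (adjusted p = 0.0504 to 0.059).

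The members did not form a single pattern over the 20 livers. Nadsyn1 and Sirt1 had a Pearson correlation of 0.68 over the levels and of 0.22 over deviations from the group means. Sirt4 and Nnmt ran against each other, at -0.71 and -0.48. Sirt3 and Nadsyn1 stood at 0.58 and 0.48. These values are descriptions, since the 20 livers fall into 4 groups whose means differ.

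By the same measure, the named genes most like each called member were sought among 15490 genes. Nadsyn1 was most like Dcaf6 (0.96, and 0.81 over deviations from group means), Pink1 (0.94) and Fam117b (0.93). Nnmt was most like Esco1 (0.90 and 0.81), Crcp (0.88) and Gpt2 (0.87). Sirt1 was most like Crebrf (0.84 and 0.81), Rhobtb1 (0.84) and Sertad2 (0.83). Sirt3 was most like Eef1a1 (0.81 and 0.71), Prxl2c (0.80) and Pigg (0.80). Sirt5 was most like Slc44a3 (0.90 and 0.54), Cep83os (0.89) and Tgfbr2 (0.89).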

How the data were processed

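Total RNA of 20 livers was hybridised to Affymetrix arrays, 1 per animal, and the authors deposited log2 levels; the submitters' processing notes name RMA, without a version. Groups were taken from the sample titles; the numbers name separate animals, and no batch is given. Of 45141 probe sets 104 controls were left out. Genes were named through the platform annotation, where 28898 probe sets had 1 symbol, 551 several and 15588 none.

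limma 3.58.1 (R 4.3.3; lmFit, eBayes) estimated the 4 group means from the 20 arrays together, with 16 residual degrees of freedom, and p-values were adjusted by Benjamini-Hochberg over all 45037 probe sets within a comparison. The script was tested on simulated data. The number of arrays limits the precision. Members and gene lists were chosen with earlier results of these data known. Named list genes were up to 3 per list and comparison with the smallest adjusted p among those that passed; exceptions are marked. Alternatives were array centring, filters, 1 probe set or the mean per gene, other variance models, array weights, 2-group fits and leaving out each animal.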

Additional observations from a re-analysis of the deposited data

Results flagged for a closer look

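In 32 groups of 5 animals (8 member probe sets in 4 groups), 2 single animals stood far from the rest by Dixon's test at its 95% level, a rate of flags that chance alone gives at about 5% of groups. Nnmt in control progeroid animal 327 read 11.00, where the next animal of the group read 10.10. Sirt7 in restricted wild-type animal 424 read 8.59, where the next read 8.86. The diet effect on Aox3 differed between progeroid and wild-type livers by 1.21 on the log2 scale (limma adjusted p = 0.0356). This call was lost without any 1 of 15 animals and with an intensity trend and robust variances (adjusted p = 0.0532).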

How the results depend on the processing

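No paired analysis was possible because the 4 groups share no animal numbers. Of the 10 member calls, the calls of Nadsyn1 in both genotypes and of Nnmt in wild-type livers held in every setting run that could give a value; over all 10, 66 of 75 values under other settings and 170 of 200 with 1 animal left out kept the call. Leaving out probe sets with the suffix _a, _s or _x removed Sirt3, Nnmt and Nadsyn1 and the dimmer Sirt5 probe set, so that the member counts became 0 and 1 between genotypes (control, restricted diet), 1 with diet in progeroid and 2 in wild-type livers. The single genotype call on the control diet was 0 with arrays centred on their medians, with the mean of each gene's probe sets, with an intensity trend and robust variances, with array weights and with only the 2 groups compared; this last setting left 1 call on the restricted diet. With 1 animal left out, member counts ran from 0 to 1 and from 0 to 2 between genotypes on the control and restricted diets.

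Over all probe sets, 3127, 5174, 3715 and 8544 passed (genotype on control and restricted diet, diet in progeroid and wild-type livers) and 350 for the difference of diet effects. With 1 probe set per gene the first 4 became 1883, 2948, 2053 and 3842, and with the mean per gene 1854, 2820, 1890 and 3735, since fewer features were tested. The difference of diet effects gave 221 with the mean per gene, 552 without dim probe sets and 150 to 892 with 1 animal left out; the cause was not tested. Without suffixed probe sets, diet in progeroid livers gave 2469. Member differences that had not passed changed sign only when 1 animal was left out, within these ranges: between genotypes on the control diet Sirt1 -0.094 to 0.040, Sirt4 -0.025 to 0.16, Sirt7 -0.080 to 0.0066 and Nadsyn1 -0.097 to 0.042; with diet in wild type Sirt3 -0.089 to 0.027; and for the difference of diet effects Sirt5 -0.055 to 0.056 and Nadsyn1 -0.0068 to 0.13. The number of animals limits what can be said of the smaller differences.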
